A study of Mus musculus with 3 samples.

Results

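Normal mouse liver was compared with mouse spleen that had received SiO2 (silica), called the SiO2 spleen, to describe how the organs differ across all genes. The comparison uses 2 of the 3 RNA samples of the series, which were chosen by their labels and not by any measured value. Both samples are total RNA from female mice, hybridised to 1-colour Agilent arrays that read the Cy3 fluorescence of a labelled cRNA at each probe. The SiO2 spleens received SiO2 and were collected on day 82, and they serve as the control of the series design. The liver is untreated tissue that the labels call normal and list as a positive control, with no day given. The other array of the series, from spleens treated with SiO2-3TF-3C (an abbreviation the labels leave unexplained), helped to choose 1 probe per gene and is otherwise not described. Strain, age, route and dose are not stated in the sources used here. The design text states that 5 samples were pooled per group and does not say whether this holds for the liver.

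Each organ has 1 array, so there was no replicate, no test and no p-value. Precision is limited by this number of arrays. Genes were described by size: a difference of at least 2-fold or at least 4-fold between the arrays. A level is the log2 intensity of a gene's probe minus the 75th percentile of its array, and a difference is the level in liver minus the level in spleen. A value after ± is the technical error that the scanner software gives for the signals, which leaves out all spread between animals and pools. A gene counts as measured on an array if the scanner software marks its probe as well above background. Of 20549 named genes, 16150 (78.6%) were measured on both arrays, 955 on the spleen array only, 556 on the liver array only and 2888 on neither.

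The spleen is a blood filter and a lymphoid organ. Its white pulp holds B and T cells around small arteries, and its red pulp holds macrophages that take up old red cells, with platelets, granulocytes and, in mice, red cell precursors. The liver consists mainly of hepatocytes, which secrete plasma proteins, make bile acids, detoxify compounds and adjust blood glucose, fat and nitrogen. Between them lie sinusoids lined by endothelium, Kupffer cells (the resident macrophages), vitamin A-storing stellate cells and the bile ducts. A small set of transcription factors, among them HNF4A, FOXA and C/EBP proteins, keeps hepatocyte genes active, whereas PU.1, EBF1, PAX5 and GATA1 play such a role in blood cells.

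The labelled tissues were checked against their defining markers. Albumin (Alb), the main plasma protein of hepatocytes, had a level of -4.10 in spleen and 6.12 in liver, and the hepatocyte regulator Hnf4a -6.04 and 5.55. The liver sample therefore carried its own markers at high level. Markers of lymphoid cells, however, exceeded background clearly on the liver array as well as on the spleen array. All 34 B cell genes were measured on both arrays, as were 51 of 52 T and NK cell genes and all 52 pan-leukocyte genes. The exception, Cd40lg, was measured on neither. The levels of the B cell genes, summed on the linear scale, came to 326.8 in spleen and 133.3 in liver. Those of T and NK cell genes came to 160.7 and 63.7, and those of pan-leukocyte genes to 470 and 208. The median negative control spot had an intensity of 1.94 in spleen and 1.85 in liver. None of the 34 B cell genes was below background in liver. Regulators of the spleen as an organ and genes of lymphoid stroma, 25 of 25 measured on both arrays, summed to 131.1 in spleen and 63.3 in liver. Over all blood and spleen lists the median difference was -1.27. Whether the RNA labelled as normal liver also held RNA of spleen or other lymphoid tissue was not tested. The difference of each blood or spleen gene given below is therefore one between these RNA samples. Such RNA, fewer cells of a type, less RNA per cell and the SiO2 given to the spleen alone cannot be told apart in it. For every gene below, organ and SiO2 treatment differ together between the samples and cannot be told apart.

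Promoter sequences of a few genes are shown to place the differences beside the DNA that lies before the genes of hepatocytes and blood cells. RefSeq promoter windows (GRCm38.p6, 250 bases before to 50 after a start site) were searched on both strands for short letters bound by known regulators. The letters were AGATAA for GATA factors, GAGGAAGT for PU.1, CAAAGTCCA for HNF4, TGTTTAC for forkhead factors, TTGCGCAA for C/EBP, ATGCAAAT for octamer factors and TATAAA for the TATA box. The GATA letters stood in 8.08% of the windows of genes measured on both arrays, in 11.1% of those of the hepatocyte lists and in 14.7% of those of the blood and spleen lists. In the red cell list this share was 31.4% (11 of 35) and in the B cell list 6.06%. The PU.1 letters stood in 3.13%, in 6.67% of the windows of the blood and spleen lists and in 3.72% of those of the hepatocyte lists. HNF4 letters were found in 0.43%, 1.55% and 0.333% of the windows of all measured genes, hepatocyte lists and blood and spleen lists, and the forkhead letters in 2.77%, 4.64% and 3% in the same order. For the other letters these shares were 0.243%, 0.31% and 0% (C/EBP), 1.4%, 1.24% and 2% (octamer), and 9.61%, 18.6% and 17.3% (TATA box). Over all RefSeq windows of this length the GATA and PU.1 letters stood in 11.2% and 3.2%, the HNF4, forkhead and C/EBP letters in 0.475%, 3.65% and 0.183%, and the octamer and TATA letters in 1.74% and 13.6%. A match is a description of the letters and neither a bound site nor a cause.

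The 250 bases before the start site are given for 5 genes, 5′ to 3′ on the strand of the gene, with matched letters in capitals. Hnf4a stands for the hepatocyte. The other 4 were chosen after their values were seen, as the gene of the hepatocyte lists, or of the red cell, B cell or pan-leukocyte list, with the largest difference among those whose sequence holds the letters searched for that list. In Hnf4a the capitals mark GATA letters, in Cyp3a16 those of forkhead factors, the TATA box and HNF4, in that order, in Rhd GATA letters, and in Cd72 and Vav1 the PU.1 letters. In Cd72 the letters lie on the opposite strand and are printed as the reverse complement.
Hnf4a, chr2:163506607-163506856, plus strand: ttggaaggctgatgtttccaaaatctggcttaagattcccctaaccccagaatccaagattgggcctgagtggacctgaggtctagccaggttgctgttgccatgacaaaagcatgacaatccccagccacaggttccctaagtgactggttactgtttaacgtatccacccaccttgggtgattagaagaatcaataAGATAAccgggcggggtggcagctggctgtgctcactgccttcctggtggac
Cyp3a16, chr5:145469724-145469973, minus strand: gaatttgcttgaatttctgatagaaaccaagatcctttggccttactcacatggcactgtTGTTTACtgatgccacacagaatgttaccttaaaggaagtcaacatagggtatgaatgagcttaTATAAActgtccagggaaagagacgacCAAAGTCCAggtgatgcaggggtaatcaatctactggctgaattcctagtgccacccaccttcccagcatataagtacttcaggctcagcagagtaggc
Rhd, chr4:134864286-134864535, plus strand: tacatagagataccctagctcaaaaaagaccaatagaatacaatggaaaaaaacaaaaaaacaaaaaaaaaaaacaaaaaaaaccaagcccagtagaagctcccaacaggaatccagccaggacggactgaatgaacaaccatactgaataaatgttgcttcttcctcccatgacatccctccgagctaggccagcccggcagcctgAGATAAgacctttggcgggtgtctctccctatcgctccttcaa
Cd72, chr4:43454627-43454876, minus strand: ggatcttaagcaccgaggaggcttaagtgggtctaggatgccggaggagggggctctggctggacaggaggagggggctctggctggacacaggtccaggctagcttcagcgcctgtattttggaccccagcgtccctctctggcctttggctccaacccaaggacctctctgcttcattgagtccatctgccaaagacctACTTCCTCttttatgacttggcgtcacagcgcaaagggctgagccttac
Vav1, chr17:57278850-57279099, plus strand: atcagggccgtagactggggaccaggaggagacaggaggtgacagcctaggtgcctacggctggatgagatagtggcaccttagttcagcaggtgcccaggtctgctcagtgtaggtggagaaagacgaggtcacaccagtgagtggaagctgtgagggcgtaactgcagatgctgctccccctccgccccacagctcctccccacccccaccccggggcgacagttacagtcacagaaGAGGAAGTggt

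The first matched base lies 52 bases before the start site in Hnf4a, 190 in Cyp3a16, 43 in Rhd, 49 in Cd72 and 11 in Vav1. Differences in level, liver minus spleen, of these genes were 11.59 for Hnf4a and 9.57 for Cyp3a16, a cytochrome P450 of the Cyp3a family, whose near-identical copies may share a probe. They were -1.67 for Rhd, a red cell blood group protein, -2.09 for Cd72, an inhibitory receptor of B cells, and -1.65 for Vav1, a signalling protein of blood cells.

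The arrays of the organs differed in an uneven way. Among the genes measured on both arrays, 2353 (14.6%) were at least 2-fold higher in liver and 2644 (16.4%) at least 2-fold lower. The counts parted at 4-fold, with 1107 genes (6.85%) higher in liver and 107 (0.663%) lower. The other 69.1% lay within 2-fold, and the median difference over all genes was -0.12. Differences reached 11.69 upward and -4.87 downward. The 99th percentile was 6.86 and the 1st percentile -1.89. The levels of the organs correlated across genes with r = 0.85, a description over genes that share both arrays and are not independent replicates.

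**Figure D1:**
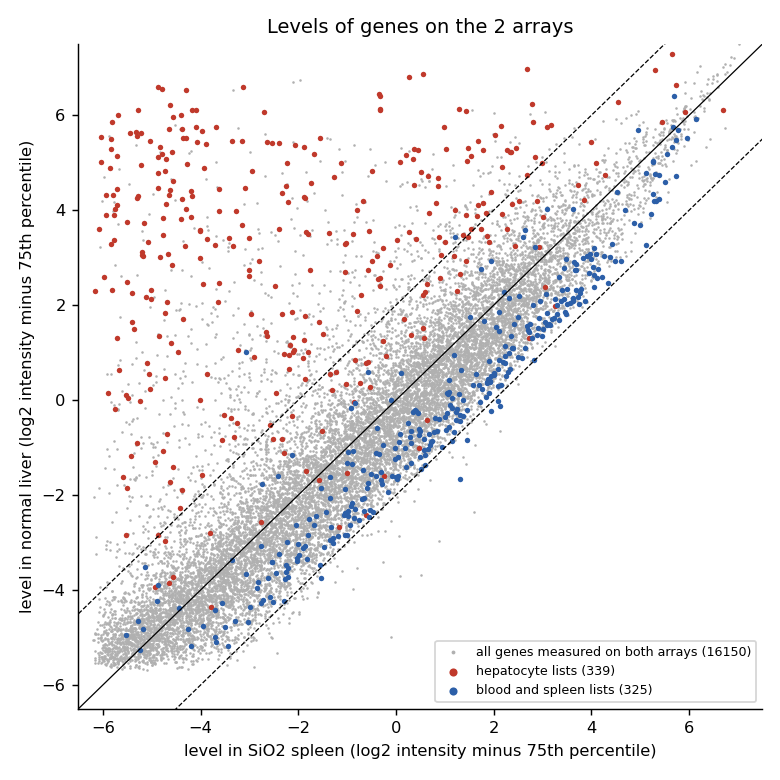
Levels of the 16150 genes measured on both arrays, as log2 intensity minus the 75th percentile of the array, in SiO2 spleen on the horizontal axis and liver on the vertical axis. Genes of the hepatocyte lists (red) spread far above the solid line of equality, while genes of the blood and spleen lists (blue) gather between the line and the lower dashed line of 4-fold.

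The unevenness was also seen when genes were grouped by level. Among the 1957 genes with a spleen level from 0 to 1, the 5th percentile of the difference was -1.58, and 0.72% were at least 4-fold lower in liver. Among the 298 genes with a spleen level from 4 to 5 the 5th percentile was -1.44, and 0 were at least 4-fold lower. Grouped instead by their level in liver, genes reached far lower in spleen. The 419 genes with a liver level from 4 to 5 had a 5th percentile of -9.05 for spleen minus liver, and 29.8% of them were at least 4-fold lower in spleen. Bright genes of the liver could thus be nearly dark in spleen, but few bright genes of the spleen were so in liver.

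**Figure D2:**
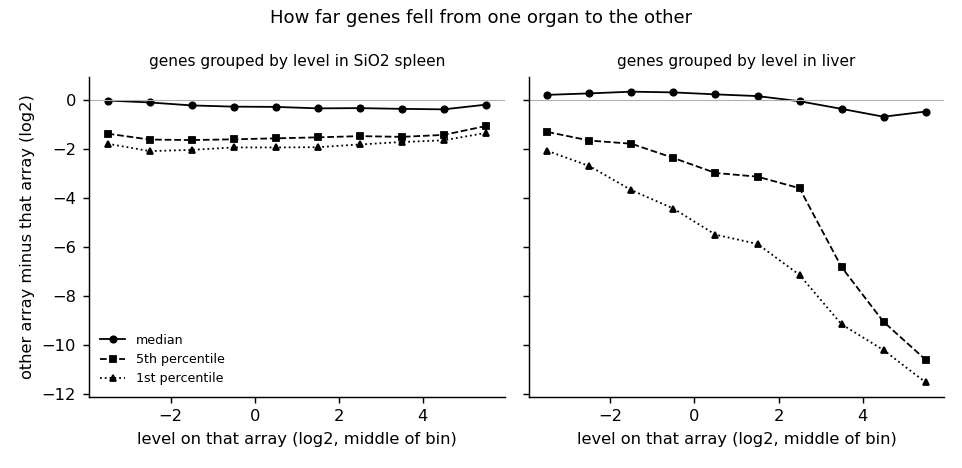
Percentiles of the difference between the arrays for genes grouped by level in SiO2 spleen (left) and in liver (right), each taken as the other array minus the array that sets the groups, on a log2 scale. The 5th percentile stays between -1.65 and -1.08 when genes are grouped by their level in spleen and reaches -10.59 when they are grouped by their level in liver.

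For genes measured on 1 array alone at most a lower limit of the fold is known, called a bound. It takes as the dim level the floor of the other array, that is its lowest signal well above background, or the gene's own signal if that is higher. Of 556 genes measured on the liver array alone, 265 had a bound of at least 4-fold. Of 955 measured on the spleen array alone, 639 had a bound, and 14 had one of at least 4-fold. The other 316 were no brighter in spleen than the dim level taken for liver, so they have no bound and could not count. High bounds belonged to hepatocyte products, of which members of families with near-identical copies (Cyp2c, Mup, Ces and Serpina genes) may share probes. Fgg, a chain of fibrinogen, had a bound of at least 4910-fold. Vtn, which encodes the plasma adhesion protein vitronectin, was at least 4118-fold higher, the protease inhibitor Serpina3k at least 3759-fold, and Hamp, the iron hormone hepcidin, at least 3609-fold. In the opposite direction the highest bounds were small. The olfactory receptor gene Olfr819 was at least 8.90-fold lower in liver, Lrrc49 at least 5.63-fold, the cathepsin gene Cts7 at least 5.598-fold and Cip2a, an inhibitor of protein phosphatase 2A, at least 5.12-fold.

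The hepatocyte lists held 441 genes, of which 420 were found on the array. Of these, 339 were measured on both arrays, 80 on the liver array alone and 1, the organic cation transporter Slc22a3, on the spleen array alone. Among the 339, 307 were at least 2-fold higher in liver, 7 were at least 2-fold lower and 25 lay within 2-fold. Over all genes 14.6% were at least 2-fold higher. The median difference was 4.37, beside -0.12 for all genes, with an interquartile range from 2.38 to 7.80. By list, the median ran from 2.22 for glucose and glycogen metabolism to 8.8 for plasma carriers and inhibitors.

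Regulators of the hepatocyte had a median difference of 3.17 over 23 genes measured on both arrays, of which 17 were at least 2-fold higher in liver. Hnf4a, a nuclear receptor at the centre of the hepatocyte programme, was 3086-fold higher (11.59 ± 0.35). Its spleen level lay near the floor, and normexp background correction gave a difference of 8.78. Ppara, the nuclear receptor that drives fat oxidation in fasting, had a level of -4.30 in spleen and 4.02 in liver, a difference of 8.32, although its other measured probe gave 3.35. Nr1h4, the bile acid receptor FXR, had -5.81 and 2.32, and the pioneer factor Foxa2 was not measured in spleen and was bounded at 7.86. The smallest differences were those of genes bright on both arrays. Hhex had levels of 2.93 and 3.23, Zfp36l1 of 3.85 and 4.21 and Cebpb, which is also a factor of macrophages, of 4.27 and 4.75. Over the list the median level in spleen was -2.30, and the lower quartile of the difference was 0.92.

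Secreted plasma carriers and inhibitors had the highest median of the lists, 8.80, with 30 of 31 at least 2-fold higher in liver. Mug1, the protease inhibitor murinoglobulin, had levels of -5.69 and 6.0, a 3298-fold difference (11.69 ± 0.34), which was 8.95 with normexp background correction. Ambp, the precursor of the plasma protein alpha-1-microglobulin and of bikunin, had -4.87 and 6.60, and the kininogen gene Kng1 -5.28 and 6.10. Apoh, a phospholipid-binding plasma protein, had -5.31 and 5.56, and the major urinary protein gene Mup3 -5.44 and 5.62. At the other end, Selenop, which encodes the selenium carrier of plasma, had 5.45 and 5.86, and the iron carrier Trf 4.54 and 6.27. The growth factor Igf1 had 2.79 and 6.24, and its other 3 probes gave differences from 3.01 to 3.37. These low members were bright in spleen as well, unlike the rest of the list.

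The clotting and fibrinolysis list reached a median of 8.46, and 14 of its 15 members were at least 2-fold higher in liver. The fibrinogen chain Fgb had levels of -4.79 and 6.55, plasminogen (Plg) -5.84 and 5.50, and antithrombin (Serpinc1) -3.15 and 5.46. The exception was F10, factor X, with 6.70 and 6.10 at the brightest probe. The other F10 probe gave a difference of 5.18, so the probes disagreed by several log2 units and the gene has no settled difference. Pros1, the cofactor protein S, had 0.31 and 1.37.

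In the acute phase and complement list 26 of 27 genes were higher in liver by 2-fold or more (median 5.72). Cfi, the protease that inactivates C3b, had -5.83 in spleen and 5.28 in liver. C8b, a chain of the membrane attack complex, had -5.93 and 4.31, and the hepatocyte-secreted Fgl1 -4.36 and 5.51. The early components were closer: C4b had 4.0 and 5.44, and C3 had 5.31 and 6.96, with 3.11 at its other probe. Lcn2, the iron-sequestering lipocalin that neutrophils also carry, had 0.55 and 1.51, the smallest difference of the list.

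All 18 lipoprotein and fat transport genes measured on both arrays passed 2-fold higher (median 6.36). Apoc3 had -4.17 and 6.10, and Apob, the backbone of very low density lipoprotein, -5.15 and 3.73. Pon1, an esterase carried on high density lipoprotein, was not measured in spleen and was bounded at 11.66. Apoe, which macrophages also make, had 5.64 and 7.29. The smallest difference was 1.33, for the lipoprotein receptor Scarb1.

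Detoxifying enzymes followed. Of 30 cytochrome P450 genes measured on both arrays 28 were at least 2-fold higher in liver, with a median of 6.76, and 13 more had a bound. Cyp2f2 had -4.63 and 6.21, Cyp2c23 -5.04 and 5.46, and the ethanol-oxidising Cyp2e1 -4.86 and 5.11. The highest bounds were those of Cyp2a12, at least 3458-fold, and of Cyp2c54, at least 3434-fold, although the other probe of Cyp2c54 was measured on both arrays and gave 6.83. Cyp4f18, a neutrophil enzyme that inactivates leukotriene B4, went the other way with 2.72 in spleen and 1.31 in liver. Among conjugating enzymes and esterases 28 of 29 were at least 2-fold higher (median 4.92). The carboxylesterase Ces3a had -5.82 and 5.85, a 3259-fold difference, and Ces1c -5.70 and 5.15. Glutathione transferase Gstm1 had 1.44 and 6.08, and Nat8, the one gene of the list within 2-fold, -2.77 and -2.56.

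Hepatic transporters were more mixed, with 17 of 22 at least 2-fold higher and a median of 2.85. The fatty acid and bile acid ligase Slc27a5 had -4.58 and 5.22, the water channel Aqp8 -4.62 and 4.42, and the organic anion transporter Slco1b2 was bounded at 10.73. Abcb1a, the drug efflux pump that lymphocytes also carry, had -1.16 in spleen and -2.67 in liver. Slc10a1, the bile salt uptake carrier, had 5.92 and 6.07 at its brightest probe and a difference of 6.96 at the other, so it has no settled difference either. In bile acid synthesis 9 of 10 passed 2-fold higher (median 4.40). Cyp7a1, the rate-limiting enzyme, had -5.09 and 0.79, and the reductase Akr1c6 -5.21 and 5.63. Cyp46a1, the cholesterol 24-hydroxylase best known from brain, had -1.52 and -0.66.

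All 43 genes of the urea cycle and amino acid catabolism that were measured on both arrays were at least 2-fold higher in liver, with a median of 6.12. Bhmt, which remethylates homocysteine, had -4.57 and 5.97, and the urea cycle enzymes Arg1 and Cps1 had -5.80 and 4.31, and -3.87 and 3.40. The smallest differences were 1.37 for the serine dehydratase-like Sdsl and 1.69 for kynurenine monooxygenase (Kmo).

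Among 31 genes of glucose and glycogen metabolism 20 were at least 2-fold higher in liver and 5 at least 2-fold lower, with a median of 2.22. The gluconeogenic enzymes were among the highest: Pck1 had -6.03 and 5.01, and Fbp1 -4.39 and 6.01. Ketohexokinase (Khk) had 1.67 and 5.45. Several enzymes and carriers of glycolysis were lower in liver. Pfkp, the platelet form of phosphofructokinase, had -0.62 in spleen and -2.41 in liver, and its other probe gave -0.99. The muscle-type pyruvate kinase Pkm had 0.48 and -1.0, the neuronal-type glucose carrier Slc2a3 -0.25 and -1.59, and hexokinase Hk2 0.63 and -0.42. Slc2a1 and Hk3 lay within 2-fold, at -0.68 and -0.52. The lactate dehydrogenase Ldha, one of the brightest genes of the list, had 5.74 and 6.63, and its other probes gave differences of 0.92 and 2.11. Hk1 had 3.26 and 1.98 at the brightest probe but a difference of 1.69 at the other, and its mean over probes was 0.21. Pklr and Slc2a2, the liver forms of pyruvate kinase and of the glucose carrier, named after their values were seen, were higher. Pklr had -4.76 and -1.08, and Slc2a2, not measured in spleen, was bounded at 9.49.

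Of 34 genes of fatty acid oxidation and ketone synthesis 33 were at least 2-fold higher in liver, at a smaller median of 2.92. The acyl-CoA synthetase Acsm1 had -5.22 and 4.95 and the fatty acid hydroxylase Cyp4a10 -2.53 and 5.41, with 3.75 at its other probe. The smallest differences were 0.89 for the peroxisomal thiolase Acaa1a, 1.31 for Hadhb and 1.33 for Acadl, whereas the mitochondrial thiolase Acaa2 had 3.06. In fat and cholesterol synthesis 28 of 30 were at least 2-fold higher (median 3.27). The elongase Elovl2 had -4.20 and 4.40 and the lipogenic regulator Thrsp -4.01 and 3.56. Srebf2, the master regulator of cholesterol synthesis, had -1.57 and -1.69, and the citrate lyase Acly 3.01 and 3.85.

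**Figure D3:**
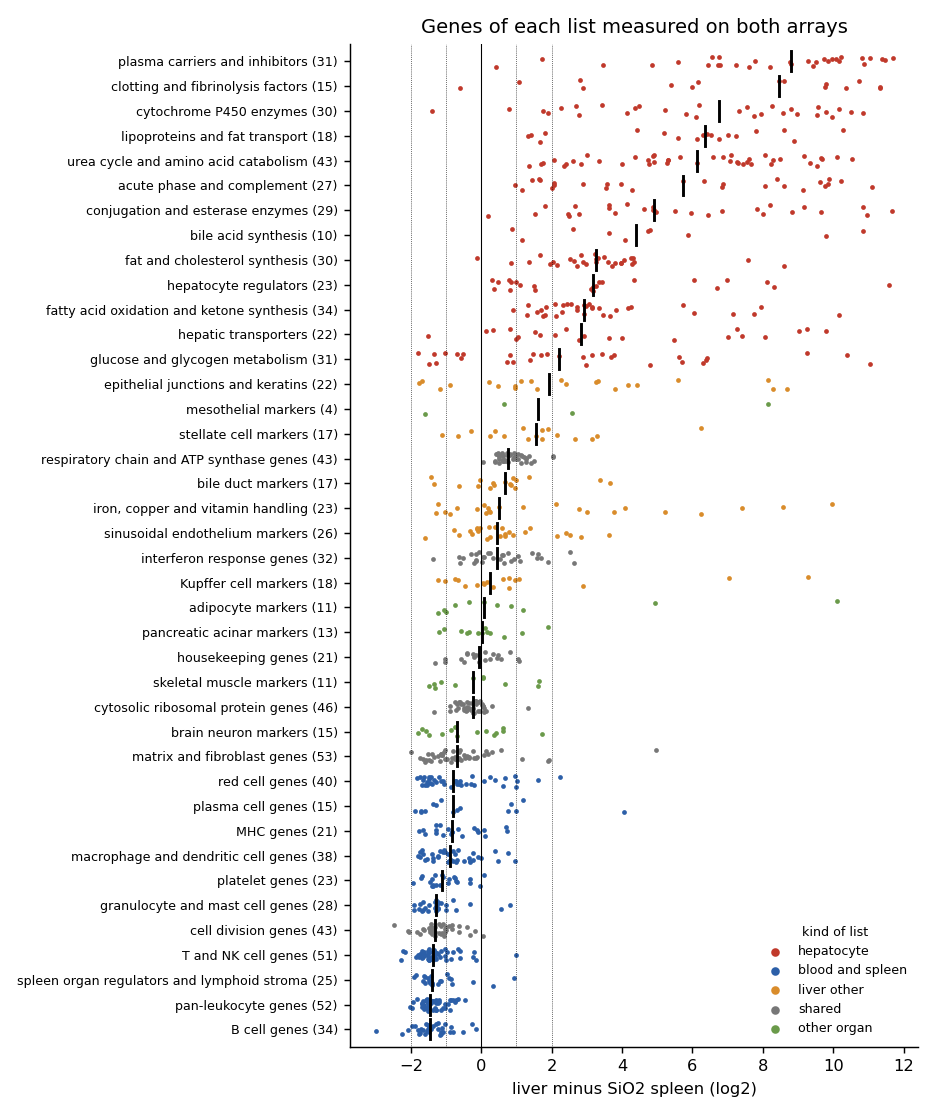
Difference of every gene measured on both arrays, liver minus SiO2 spleen on a log2 scale, by list, with the number of such genes in parentheses and a black bar at the list's median. Dotted lines mark 2-fold and 4-fold; medians run from -1.45 for B cell genes to 8.80 for plasma carriers and inhibitors, and those of the blood and spleen lists (blue) lie from -1.45 to -0.79.

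The other cell types of the liver have relatives in the spleen. Kupffer cell markers had a median of 0.24 over 18 genes. Of these, 4 were at least 2-fold higher and 2 lower, beside 14.6% and 16.4% of all genes. Clec4f, a lectin receptor of Kupffer cells, had -6.06 in spleen and 3.23 in liver, a 627-fold difference, and the complement receptor Vsig4 -4.73 and 2.32. The scavenger receptor Marco had 3.80 and 2.55, the haem oxygenase Hmox1 3.06 and 2.04, and C1qc, a chain of C1q, 4.47 and 4.50. Marco and Hmox1 were the 2 genes of the list at least 2-fold lower in liver, and C1qc was within 2-fold. Among iron handling genes, the iron exporter Slc40a1 had 4.95 and 4.84 and the ferritin chain Fth1 5.59 and 5.67. Tmprss6, a protease that restrains hepcidin, had -5.78 and 4.18, and hepcidin itself was not measured in spleen.

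Sinusoidal endothelium markers had a median of 0.46 over 26 genes, 7 of them at least 2-fold higher in liver, beside 14.6% of all genes. Oit3 had -1.59 and 2.03, the lectin Clec4g 1.21 and 4.04, and the hyaluronan receptor Lyve1 -2.74 and -0.34. Stab2, a scavenger receptor of sinusoids in both organs, had 3.57 and 3.30. Cd209b, the lectin of splenic marginal zone macrophages, had -2.57 and -4.15. Stellate cell markers had a median of 1.57 over 17 genes, with 11 at least 2-fold higher, beside 14.6% of all genes. The soluble lectin Colec11 had -4.23 and 2.02, the hormone-like Angptl6 -2.17 and 1.12, and Colec10 was bounded at 7.97. Pdgfrb, the receptor of pericytes in all organs, had 2.41 and 1.29. Bile duct markers had a median of 0.67 over 17 genes, with 3 at least 2-fold higher and 2 lower, beside 14.6% and 16.4% of all genes. Pkhd1, a protein of the primary cilium, had -5.25 and -1.58 and Sox9 -3.11 and 0.28. Krt19, the keratin of bile ducts, was not measured in spleen and stood at -4.54 in liver, at least 3.17-fold higher, while Epcam, which some leukocytes also carry, had -3.09 and -4.52.

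Epithelial junction genes set the organs apart more clearly, with 14 of 22 at least 2-fold higher in liver, beside 14.6% of all genes. Their median was 1.94. The gap junction genes Gjb2 and Gjb1 had -3.69 and 5.01, and -2.69 and 5.60. The keratin Krt18 had -3.67 and 4.48, and its partner Krt8 was bounded at 7.12. Gja1, the connexin of stromal cells, went the other way with 0.20 and -1.49, as did the integrin Itga1 with -0.39 and -2.17, although its other probe gave 0.28. In the extracellular matrix list (median -0.70) 19 of 53 genes passed 2-fold in the direction of lower in liver and 4 in the direction of higher. Pi16, a marker of universal fibroblasts, had 1.09 and -0.91, and the protease Mmp3 0.18 and -1.57. Col18a1, a basement membrane collagen that hepatocytes make, had 0.27 and 5.24, and its other probe gave 4.38. Col1a1 had 4.39 in spleen and 3.74 in liver.

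Blood and spleen lists held 340 genes, of which 331 were found on the array and 325 were measured on both. Of the 325, 213 were at least 2-fold lower in liver, 107 lay within 2-fold and 5 were at least 2-fold higher. Over all genes 16.4% were at least 2-fold lower. The 3 measured on the spleen array alone were the red cell genes Rhag and Tmod1 and the IgE receptor gene Fcer1a, of which Tmod1 was named after its values were seen. The median difference was -1.27, or 2.41-fold lower, with an interquartile range from -1.53 to -0.79. Between 2-fold and 4-fold lower lay 206 (63.4%) of these genes, and 7 were lower by at least 4-fold, beside 0.663% of all genes. By this processing most members therefore lay in a narrow band. With normexp background correction 159 genes of these lists, rather than 213, were at least 2-fold lower, and with quantile normalization 228. By list, the normexp count stayed at 8 for MHC genes and fell from 19 to 8 for red cell genes.

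**Figure D4:**
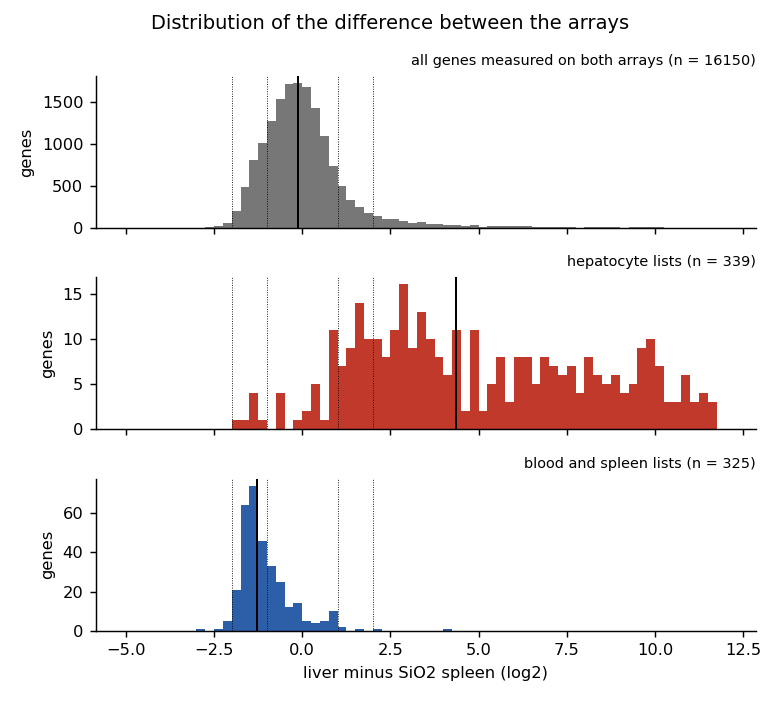
Histograms of the difference, liver minus SiO2 spleen on a log2 scale in bins of 0.25, for all 16150 genes measured on both arrays (top), the hepatocyte lists (middle) and the blood and spleen lists (bottom). Solid lines mark the medians of -0.12, 4.37 and -1.27 and dotted lines 2-fold and 4-fold; the blood and spleen genes form a single narrow peak, whereas the hepatocyte genes spread over more than 10 log2 units.

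B cell genes had a median of -1.45, and 28 of 34 were at least 2-fold lower in liver. The B cell kinase Btk had 1.32 and -1.66, a 7.88-fold difference, and its other probe gave -2.85. The co-stimulatory receptor Cd40 had 2.12 and -0.13, Cd72 2.08 and -0.01, and the lineage factor Ebf1 0.51 and -1.45. The brightest members differed less: Ms4a1, which encodes CD20, had 5.22 and 3.93, the receptor chain Cd79b 5.33 and 4.20, and the factor Spib 5.28 and 4.20. Bcl6, the regulator of germinal centres that the liver also transcribes, had 2.32 and 2.16. No B cell gene was higher in liver by the probe used, although another probe of Tnfrsf13c, named after its values were seen, gave 0.04.

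For T and NK cell genes the median was -1.38, and 41 of 51 were lower by 2-fold or more. The adaptor Lat had 1.45 and -0.84, a 4.87-fold difference, the adhesion receptor Cd226 -1.54 and -3.75, and the receptor chain Cd3g 1.94 and -0.23. Cd3e, another chain of the same complex, had 0.39 and -0.21, a 1.51-fold difference. Cd4 had 1.81 and 1.67, although its other probe gave -1.10. Gzmk, a granzyme that stood near the floor of both arrays, had -4.88 and -3.89. By the probe used for each gene, it was the one gene of this list above 0. Another probe of Cd6, named after its values were seen, gave 0.93.

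Genes shared by all leukocytes were the most uniform. By the probe used for each gene all 52 were lower in liver, 43 of them by at least 2-fold. The median was -1.44 and the interquartile range ran from -1.55 to -1.18. Arhgdib and Selplg, named after their values were seen, each had another probe at 0.15. The adaptor Sla had 1.15 and -0.86, and the kinase Pik3cd 2.82 and 0.85, with -1.47 and -1.04 at its other probes. The factor Runx3 had 0.59 and -1.36, but its other probe gave -0.37. Ptprc, which encodes CD45, had 2.29 and 0.60. The smallest difference was that of the integrin chain Itgal, with -0.89 and -1.34.

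Of the myeloid lists, that of macrophages and dendritic cells differed less than the lymphocyte lists in the median. The granulocyte and mast cell list lay close to the lymphocyte lists. Of 38 genes of macrophages and dendritic cells 16 were at least 2-fold lower and 22 within 2-fold (median -0.89). Cd209a, a lectin of dendritic cells, had -1.04 and -2.84, and the monocyte receptor Cx3cr1 1.71 and -0.03. The lysosomal protease Ctss had 5.54 and 5.19, and lysozyme Lyz1 5.26 and 5.04. Msr1, the scavenger receptor A, was higher in liver, with -2.12 and -1.15, and its other probe gave 1.76. For granulocytes and mast cells, 22 of 28 genes passed 2-fold lower (median -1.28). The eosinophil granule genes Prg2 and Prg3 had -0.56 and -2.47, and -1.56 and -3.47. S100a9, a major protein of neutrophils, had 5.64 and 5.33, while its partner S100a8 had 4.99 and 3.69.

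Red cell genes had a median of -0.79 over 40, with 19 at least 2-fold lower and 3 higher. The ankyrin Ank1 had -3.43 and -5.17, and Rhd 1.46 and -0.20. The globins, which the globin removal step of the RNA protocol targets, had 5.95 and 5.53 for Hba-a1 and 5.74 and 5.48 for Hbb-bt, although near-identical globin copies may share a probe. Klf1, the erythroid regulator, had -1.54 and -1.84. Of 23 platelet genes 13 were at least 2-fold lower (median -1.12). Treml1, a receptor of platelet granules, had 0.95 and -0.98, the platelet chemokine Pf4 3.37 and 2.08, and the platelet receptor chain Gp1bb -4.45 and -4.37.

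Among 21 MHC genes 8 were at least 2-fold lower, and the median was -0.83. The lowest were H2-Ob, H2-DMb2 and H2-DMb1, chains of the proteins that regulate peptide loading of class II molecules, at -1.78, -1.66 and -1.61. The class I chain H2-K1 had 5.78 and 5.68, its partner B2m 5.69 and 6.40, and H2-Q7 4.96 and 5.68. The class II chain H2-Ab1 had 6.14 and 5.93, one of the brightest genes on both arrays. Among 25 regulators of the spleen as an organ and genes of lymphoid stroma, 18 were at least 2-fold lower, and the median was -1.40. The cytokine Tnfsf11, which organises lymphoid tissue, had -2.30 and -4.22, lymphotoxin Ltb 5.12 and 3.26 and Lta 1.09 and -0.57. Tlx1, a factor without which the spleen does not form, had -0.86 in spleen and -2.48 in liver, and was still well above background there, at an intensity of 76.2. Barx1 had -5.17 and -4.82, near the floor of both arrays.

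The genes of these lists that were lower by more than most were, in order, Btk, Lat, Cd40, Cd226, Cd3g, Cd72, Sla, Pik3cd, Ebf1, Runx3, Treml1 and Tnfsf11. They ran from -2.98 to -1.92, beyond the 1st percentile of all genes, which was -1.89. These genes were picked as the lowest of the lists, so their place in that tail follows from the choice. Among genes with a spleen level from 0 to 1 the 1st percentile was -1.95, and from -3 to -2 it was -2.1. Runx3, Treml1 and Tnfsf11 did not pass the 1st percentile of genes of their own level. Of these 12, Btk, Pik3cd and Runx3 had another measured probe, and that of Btk alone gave at least 4-fold too. With normexp background correction the difference of Tnfsf11 shrank to -0.55 and that of Cd226 to -1.22, whereas Lat and Cd40 both kept -2.09.

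**Figure D5:**
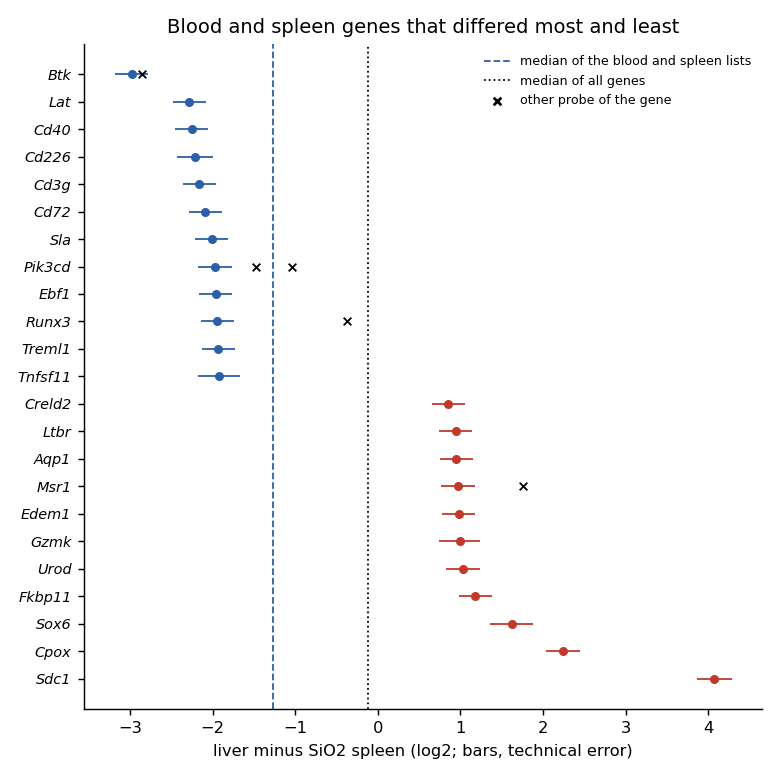
Difference, liver minus SiO2 spleen on a log2 scale, of the 12 genes of the blood and spleen lists that were lower in liver by the largest amount (blue) and 11 that were lower by the least or higher (red). Bars give the technical error and crosses the other measured probes of a gene; the blue genes lie from -2.98 to -1.92 and the red ones from 0.85 to 4.07.

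At the other end, 29 of the 325 genes had a difference above 0 by the probe used for each gene. Of 77 genes of these lists with several measured probes, the lowest and highest probe were both below 0 in 63. In 16 of the 77 the probes differed by over 1 log2. Sdc1, a syndecan that marks plasma cells and that epithelia also carry, had -3.06 in spleen and 1.01 in liver, a 16.8-fold difference. Of the haem synthesis enzymes in the red cell list, Cpox had 1.20 and 3.44 and Urod 1.74 and 2.77, whereas the erythroid enzyme Alas2, named after its values were seen, had 3.39 and 2.31. Fkbp11, a peptidyl-prolyl isomerase, had -0.58 and 0.59. Edem1, which removes misfolded glycoproteins, had 1.94 and 2.92 and Creld2 2.59 and 3.44, both within 2-fold. The water channel Aqp1 of red cells and bile ducts had 2.64 and 3.59, the lymphotoxin receptor Ltbr 3.10 and 4.03, and Sox6, an erythroid factor near the floor in spleen, -5.14 and -3.52. The plasma cell list held both ends, with a median of -0.80 over 15 genes. Its immune members were lower, among them Slamf7 with -0.48 and -2.36, Mzb1 with 2.57 and 0.88 and the immunoglobulin joining chain Jchain with 4.88 and 3.74.

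Level also went with how far a gene of the blood and spleen lists differed, in groups set after the values were seen. The 84 genes with a spleen level from 0 to 2 had a median of -1.41, and the 89 with a level from 2 to 4 one of -1.32. The 21 genes with a level of 5 or above had a median of -0.43, and 6 of them were at least 2-fold lower. The 48 genes below -2 had a median of -0.92. The 64 genes from -2 to 0 and the 19 from 4 to 5 had medians of -1.26 and -1.30. Only the brightest and the dimmest group therefore had medians closer to that of all genes. For genes near the floor the filter sets a limit. A large fall would leave them unmeasured in liver and out of these groups. Over all genes the 5th percentile was likewise closer to 0 at the top, at -1.08 for the 183 genes with a spleen level from 5 to 6. The part of signal range in this was not tested.

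Outside the lists, the lowest differences of all included those of the following genes, which were not tested for a shared function. The olfactory receptor gene Olfr1500 had -0.11 in spleen and -4.99 in liver, a 29.3-fold difference, which was -2.52 with normexp. Lmnb1, which encodes lamin B1 of the nuclear envelope, had 0.52 and -3.68, an 18.5-fold difference. Fmr1nb had 1.59 and -2.35, but its other probe gave 0.71. Srp54b, a protein of the signal recognition particle, had 0.89 and -2.96, the ephrin Efna2 0.08 and -3.71, and the myosin Myo5c -0.26 and -3.41. Zc3h12d, an RNA-degrading regulator of lymphocytes, had -0.88 and -3.97, the clathrin adaptor chain Ap2b1 0.07 and -2.87, and Zmiz2 1.43 and -1.35. Of the 107 genes at least 4-fold lower in liver, 17 had several measured probes, and in 8 of them every probe was at least 2-fold lower. For the genes at least 4-fold higher this held for 182 of 217.

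Of 43 cell division genes 33 were at least 2-fold lower and 0 higher, beside 16.4% and 14.6% of all genes. Their median was -1.31. The kinetochore gene Nuf2 had -1.98 and -4.46, cyclin Ccnb2 0.17 and -1.91, and the kinase Aurkb -1.27 and -3.33. The replication clamp Pcna had 3.94 and 3.11. Their range overlapped that of the leukocyte lists.

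Genes of the respiratory chain and ATP synthase were all above 0, 43 of 43, by a median of 0.77, and 15 were at least 2-fold higher in liver. Cyc1, the cytochrome of complex III, had 1.75 and 3.80, and Ndufb3 of complex I 1.91 and 1.96. Among 32 interferon response genes (median 0.45) 9 were at least 2-fold higher and 1 lower, beside 14.6% and 16.4% of all genes. The master regulator Irf7 had -2.93 and -0.30, the GTPase Iigp1 0.80 and 3.31, and Isg15 3.13 and 2.53. The gene at least 2-fold lower was Gbp6, with 3.22 and 1.87, but its other probe gave 2.34 and its mean over probes 0.49. Of 46 cytosolic ribosomal protein genes (median -0.24) 44 lay within 2-fold, beside 69.1% of all genes. Housekeeping genes had a median of -0.05, with Actb at 6.36 and 6.46 and Gapdh at 6.22 and 7.03. The other 5 probes of Gapdh gave larger differences, from 1.75 to 2.12.

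Markers of tissues that could adhere to either organ were checked as well. Pancreatic acinar genes had a median of 0.02 over 13, adipocyte genes 0.08 over 11, and skeletal muscle genes -0.22 over 11. Their levels, summed on the linear scale, came to 1.65 in spleen and 1.97 in liver for acinar genes and to 2.41 and 1.46 for muscle. The summed levels of adipocyte genes, 9.66 and 59.1, were set by Car3, a carbonic anhydrase of fat that hepatocytes also make, with -4.41 and 5.71. Brain neuron genes, which belong to neither organ, had a median of -0.70 over 15, with 5 at least 2-fold lower in liver and 1 higher, and Snap25 had -0.26 and -1.92. With normexp the neuron median was 0.19 and the muscle median 0.27, so neither has a settled direction. Mesothelial genes had 1.62 over 4, from -1.61 for Wt1, which spleen stroma carries too, to 8.15 for Krt18. A further 3 were measured on the liver array alone. They were Krt8 and, named after their values were seen, Upk3b and Lrrn4. Krt18 and Krt8 are also members of the epithelial junction list.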

How the data were processed

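Linear intensities after background subtraction were deposited for each array; per the file headers they come from Feature Extraction 11.0.1.1 on array design 026655 (build mm9), while the submitters' processing notes name version 9.1. A blood RNA kit, a globin removal step and Cy3 labelling of cRNA were used, per the labels' protocols, which do not say how solid organs were handled. All arrays lay on the same slide in 1 scan. Flagged spots were left out (182 of 43020 for spleen, 469 for liver), none was saturated (0), and spots of a probe were averaged on the log2 scale after subtracting the array's 75th percentile over non-control spots (an intensity of 636 and 426). Of 43020 spots 79.9% and 77.2% were well above background, and replicate spots of a probe had a median SD of 0.075 and 0.098.

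Of 39140 probes 27046 (69.1%) were named through their RefSeq accession and a GRCm38.p6 gene table, used for names alone. A gene took its brightest probe over the 3 arrays; in 789 of 4028 genes with several measured probes these differed by over 1 log2. Of genes measured on 1 array by that probe, 16 (liver) and 9 (spleen) had another probe measured on both. The authors' deposited table holds log2 values of 26049 probes, with equal column medians (5.91); its normalization is not stated in the sources used here. It was used as an alternative, as were normexp correction (limma 3.58.1, R 4.3.3) with an offset of 50, run on median signals since the files hold no mean signal, quantile normalization and other scalings, filters and probe choices. Calculations used Python with numpy 2.4.6 and pandas 2.3.3. The size rule was run on simulated data with noise below the technical error of these arrays and no spread between animals. That run cannot show how reliable the rule is here.

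The gene lists, alternatives and naming rule were chosen with earlier results of these data known. The rule took the 15 highest and 15 lowest differences, the 8 highest bounds each way, per list the 3 highest, 3 lowest and 3 brightest genes and the highest bound, the 12 blood and spleen genes that differed most and least, the 12 hepatocyte genes that differed least, and 15 fixed genes such as Alb. Some genes the rule names are not reported here. Genes named otherwise are said to be.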

Additional observations from a re-analysis of the deposited data

Results flagged for a closer look

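Probes that carried no gene symbol also held liver signal. Of 7819 such probes measured on both arrays, 212 (2.71%) were brighter in liver by 4-fold or more and 60 (0.77%) were dimmer by 4-fold or more, with a median difference of -0.17. These probes enter no comparison above, and what they measure was not examined.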

How the results depend on the processing

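Under 10 alternatives the direction of the hepatocyte and blood and spleen medians was kept. Normexp correction, which moved the median of all genes from -0.12 to 0.10, gave 1431 genes at least 2-fold and 22 at least 4-fold lower in liver, a hepatocyte median of 3.74 and a blood and spleen median of -0.98. The authors' deposited values, which cover fewer probes, gave 1373 and 668 genes at least 2-fold and 4-fold higher. Genes at least 4-fold lower numbered 69 with housekeeping scaling, 229 with no filter on dim genes and 53 with the stricter one. The hepatocyte median was 4.69 as a mean over probes, 5.85 with no filter and 3.27 with the stricter filter. Hk1 and Gbp6 changed sign as a mean over probes, to 0.21 and 0.49. The cause of these shifts was not tested, except that the filters change which genes are counted. Signals near the floor (-6.20 in spleen and -5.70 in liver) limit the largest differences, and with 1 array per organ no replicate could be left out. No paired analysis was possible because each group has 1 array and the labels carry no replicate number.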
